A study of Mus musculus with 9 samples.

Results

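Complement is a cascade of serum and membrane proteins, and 9 of its genes are described here in mouse cardiosphere-derived cells (CDCs), namely C3, C4b, C1s1, C1ra, Cfb, Cfd, Serping1, Cd55 and C3ar1. They were taken by symbol from the deposited table of 54532 genes, and the list of symbols was drawn up with earlier results of these data known. In libraries labelled as SB431542-treated immortalized CDCs, the genes of the early cascade C3, C4b, C1s1 and C1ra and the inhibitor Serping1 were higher than in untreated immortalized CDCs, by 13.0-fold for C3. The receptor gene C3ar1 was lower in the same libraries, and Cfb and Cfd were at or near 0 in all 9 libraries. The low level of Cfb is uncertain, because another gene overlaps it on the same strand.

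In the classical pathway, C1q bound to its target activates the proteases C1r and C1s, which cleave C4 and C2 and so form an enzyme that cleaves C3. The alternative pathway uses factor B, which factor D cleaves, to the same end and amplifies the deposition of C3 fragments. Most circulating complement proteins are made in the liver, but fibroblasts, epithelial cells and macrophages make several of them too. C1 inhibitor, encoded by Serping1, blocks C1r and C1s, while CD55 on the cell surface speeds the decay of the enzymes that cleave C3. C3a, a fragment of C3, signals through the receptor that C3ar1 encodes.

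The study isolated CDCs, cells that grow out of heart tissue and form floating spheres, from the ventricular epicardium of 6-week-old C57BL/6 mice and names them pECDCs (primary) and iECDCs (immortalized). There were 3 libraries of primary CDCs, 3 of iCDCs and 3 of SB431542-treated iCDCs, each a bulk RNA sequencing library of cultured cells without a separate vehicle control. The iCDCs carry human telomerase (hTERT) from a lentivirus, were selected with puromycin and were at passage 30. If the treated cells are iCDCs, as labelled, both iCDC groups share the transgene and the selection. The treated cells are iCDCs at passage 30 that received for 3 days the compound SB431542, which blocks signalling by the type I receptor of TGF-β, according to the labels, whereas the study's methods name an epithelial clone derived from primary cells for this treatment. Cdkn2a, whose products stop the cell cycle, had 407 to 562 counts in the primary libraries, at most 1 count in the iCDC libraries and 0 counts in each treated library. In these counts the treated libraries resembled the iCDCs, but the sources do not settle which cells were treated. The passage of the primary cells and the number of biological replicates also differ between the labels and the study's methods. Nothing in the labels says whether the 3 libraries of a group came from separate cultures or animals, so the spread between them may be technical.

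Total counts per library ranged from 19462912 to 23951392 in primary CDCs, from 16568306 to 20204216 in iCDCs and from 17063137 to 20849975 in treated iCDCs. Levels are given as FPKM, fragment counts scaled to gene length and library size, which allows genes to be compared per length. The CDC marker genes Eng, Thy1 and Ly6a were detected in every library, with a summed level of 653 to 800 CPM (counts scaled to library size) in the untreated groups and 722 to 761 in the treated one. That sum is mostly Eng and Thy1, and Ly6a, with 94 to 173 counts in the untreated libraries and 410 to 806 in the treated ones, rose in treated iCDCs with a log2 fold change of 2.25 against iCDCs (adjusted p = 0.00262) and 2.64 against primary CDCs (adjusted p = 0.00182). A pair of libraries stood apart from their groups, iCDC replicate 3 and, further, treated replicate 2. Chi-square divided by its degrees of freedom was 71.5 and 70.3 for treated replicate 2 against the other treated libraries, and 3.79 between those others. The same statistic was 30.8 and 24.9 for iCDC replicate 3 and 4.61 between the other iCDC libraries, and it lay between 2.70 and 4.23 among the primary libraries. Of 7 TGF-β target genes, 6 fell in the treated libraries relative to iCDCs, among them Skil (log2 fold change -2.14, SE 0.179, adjusted p = 0.000466). In the summed level of these 7 genes the treated libraries spanned 645 to 1771 CPM, below all iCDC libraries at 8975 to 11520 CPM and all primary libraries at 7336 to 7533 CPM.

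Start-site sequences of 4 of the genes are shown because their transcripts moved in the treated cells, 3 of them upward and C3ar1 downward. RefSeq windows on GRCm38.p6, from 250 bases before to 50 bases after a start site, were found for 6 of the 9 genes (C3, C1ra, C1s1, C3ar1, Cd55 and Cfd). The windows are C3 at chr17:57228087-57228386 (minus strand), C1ra at chr6:124512371-124512670 (plus strand), C1s1 at chr6:124542310-124542609 (minus strand) and C3ar1 at chr6:122856108-122856407 (minus strand). Each is written from 5′ to 3′ on the strand of its gene, and capitals mark the motif matches named after the sequences.
C3: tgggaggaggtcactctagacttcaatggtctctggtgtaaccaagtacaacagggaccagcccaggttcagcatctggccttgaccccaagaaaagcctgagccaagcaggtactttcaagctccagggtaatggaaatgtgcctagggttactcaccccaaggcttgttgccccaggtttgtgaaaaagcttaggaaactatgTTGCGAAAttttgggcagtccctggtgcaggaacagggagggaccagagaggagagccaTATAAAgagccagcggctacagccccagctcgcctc
C1ra: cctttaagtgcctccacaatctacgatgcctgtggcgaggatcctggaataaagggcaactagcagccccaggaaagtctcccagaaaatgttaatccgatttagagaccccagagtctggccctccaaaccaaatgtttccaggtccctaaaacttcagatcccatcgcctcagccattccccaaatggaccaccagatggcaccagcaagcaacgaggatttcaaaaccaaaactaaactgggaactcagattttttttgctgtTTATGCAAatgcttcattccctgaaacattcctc
C1s1: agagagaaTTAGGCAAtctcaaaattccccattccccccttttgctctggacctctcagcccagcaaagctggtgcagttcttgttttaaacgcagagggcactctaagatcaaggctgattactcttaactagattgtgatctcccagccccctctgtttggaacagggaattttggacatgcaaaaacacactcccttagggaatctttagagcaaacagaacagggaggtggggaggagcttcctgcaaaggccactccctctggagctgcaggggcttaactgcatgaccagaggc
C3ar1: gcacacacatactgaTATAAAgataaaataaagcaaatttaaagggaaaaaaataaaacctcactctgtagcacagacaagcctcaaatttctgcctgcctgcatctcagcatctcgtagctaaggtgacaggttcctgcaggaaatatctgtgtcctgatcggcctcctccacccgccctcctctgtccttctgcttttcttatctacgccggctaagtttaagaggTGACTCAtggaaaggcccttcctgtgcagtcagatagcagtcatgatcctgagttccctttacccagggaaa

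Both strands were searched for 6 motifs by their letters. The C/EBP motif TTGCNNAA was found in the windows of C3 (first base at -45 relative to the start site), C1s1 (at -242) and C1ra (at 17), and 10.8% of the 32851 RefSeq windows hold it. The AP-1 motif TGANTCA, which 7.81% of all windows hold, was found in C3ar1 at -22. The letters of the TATA box, TATAAA, present in 13.6% of all windows, were found in C3 at 15, downstream of the start site, and in C3ar1 at -235. Both are given as matches of letters, not as TATA boxes of these start sites. The motifs of STAT (TTCCNGGAA, in 1.15% of all windows), NF-kappaB (GGGANTTCC, in 1.68%) and IRF (GAAANNGAA, in 8.56%) were found in none of the 6 genes. The RefSeq start site of C1ra lies 216 bases inside the start of the gene in the deposited table. A second RefSeq window of C1s1 starts 38 bases further downstream and holds none of the 6 motifs.

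Of the 9 genes, 7 had enough counts to be tested in each of the 3 comparisons, and Cfb and Cfd did not. Between iCDCs and primary CDCs, 5 of the 7 fell and 0 rose, where 9.21% of the 13752 genes tested fell and 7.21% rose. Between treated iCDCs and iCDCs, 5 rose, 1 fell and 1 did not pass the test, against 16.0% and 14.0% of the 13559 genes tested. Between treated iCDCs and primary CDCs, 5 rose, 1 fell and 1 did not pass, against 17.9% and 17.0% of the 14015 genes tested. The median log2 fold change of the 7 genes was -0.72, 2.16 and 1.52 in these comparisons, and that of all genes tested was -0.0018, 0.0014 and 0.0068. The comparisons share libraries pairwise, so they are not independent of each other. In bulk cultures, fewer cells that transcribe a gene and less RNA of it per cell cannot be told apart.

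**Figure D1:**
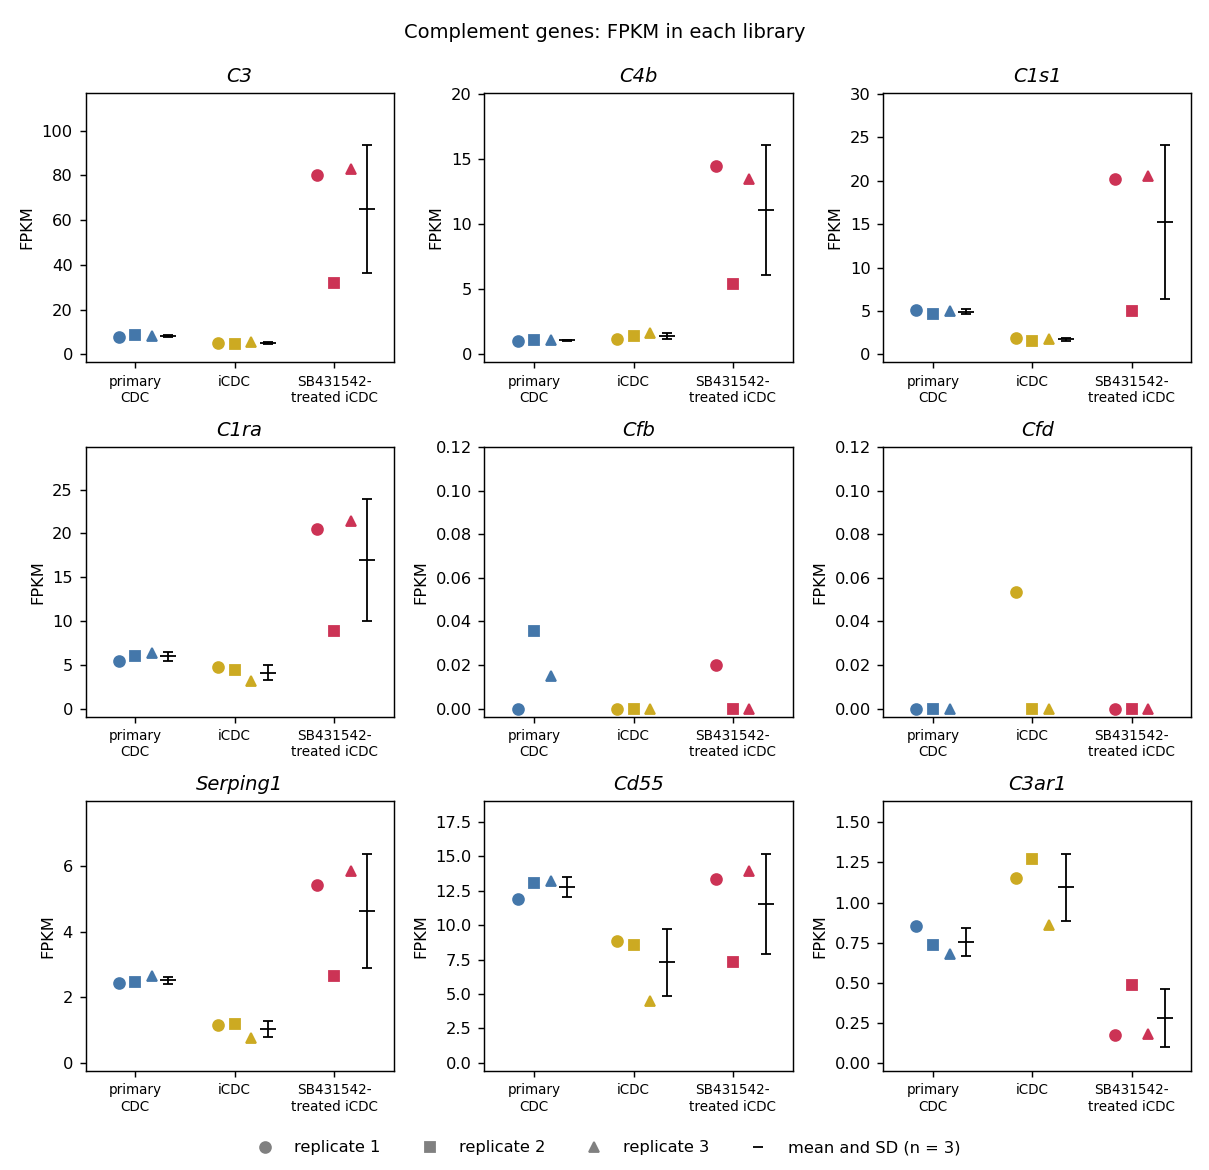
FPKM of the 9 complement genes in each of the 9 libraries, with the mean and SD of each group (n = 3) except for Cfb and Cfd, which had at most 2 counts in any library. C3, C4b, C1s1 and C1ra are highest in treated replicates 1 and 3, and treated replicate 2 lies between them and the untreated libraries except for C1s1, where it lies among the primary libraries.

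C3, whose protein is the point where the pathways meet and the source of C3a and C3b, was the gene with the highest level among the 9 in the treated libraries. It lies at chr17:57203970-57228136 on the minus strand of GRCm38. The level of C3 was 7.88, 8.60 and 8.17 FPKM in primary CDC replicates 1, 2 and 3, 5.02, 4.73 and 5.39 FPKM in iCDCs, and 80.1, 31.8 and 82.7 FPKM in treated iCDCs. All 3 groups were separate, with every iCDC library below every primary library and every treated library above both, although treated replicate 2 reached less than the other treated libraries. Group means were 8.21 ± 0.360, 5.05 ± 0.330 and 64.8 ± 28.7 FPKM (SD, n = 3). C3 fell in iCDCs relative to primary CDCs by 0.72 on the log2 scale (SE 0.0760, adjusted p = 0.000386). It rose in treated iCDCs, with a log2 fold change of 3.70 against iCDCs (SE 0.353, adjusted p = 0.000732) and of 2.99 against primary CDCs (SE 0.355, adjusted p = 0.00153). Without treated replicate 2 the log2 fold change against iCDCs was 4.02.

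The genes of both proteases of the C1 complex, and that of C4, rose in treated cells. C1s1 (chr6:124530345-124542359, minus strand), which encodes the protease that cleaves C4 and C2, stood at 5.15, 4.61 and 5.01 FPKM in primary CDCs, 1.92, 1.57 and 1.75 FPKM in iCDCs, and 20.2, 5.06 and 20.6 FPKM in treated iCDCs. Treated replicate 2 lay inside the range of the primary libraries, while the other treated libraries lay above all untreated ones. C1s1 fell in iCDCs relative to primary CDCs by 1.50 on the log2 scale (SE 0.117, adjusted p = 7.14e-05). It rose against iCDCs with a log2 fold change of 3.14 (SE 0.494, adjusted p = 0.00389) and against primary CDCs with one of 1.64 (SE 0.477, adjusted p = 0.0346). The call against primary CDCs was lost when any primary library or treated replicate 1 or 3 was left out (adjusted p from 0.104 to 0.112), and without treated replicate 2 the log2 fold change against iCDCs was 3.55.

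C1ra (chr6:124512405-124523443, plus strand) encodes the protease that activates C1s. In primary CDCs its level was 5.47, 6.00 and 6.41 FPKM, in iCDCs 4.79, 4.37 and 3.19 FPKM, and in treated iCDCs 20.4, 8.92 and 21.4 FPKM. The groups did not overlap, and iCDC replicate 3 was the lowest library. C1ra fell in iCDCs relative to primary CDCs by 0.54 on the log2 scale (SE 0.147, adjusted p = 0.0362), a call that was lost without any one of the primary libraries or iCDC replicate 2 (adjusted p from 0.0696 to 0.147). Its log2 fold change in treated iCDCs was 2.05 against iCDCs (SE 0.330, adjusted p = 0.00419) and 1.52 against primary CDCs (SE 0.315, adjusted p = 0.0108), the latter with an adjusted p of 0.0521 without primary CDC replicate 1.

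C4b (chr17:34728380-34743882, minus strand) encodes the C4 protein that C1s cleaves. C4b stood at 1.06, 1.15 and 1.08 FPKM in primary CDCs, 1.17, 1.45 and 1.62 FPKM in iCDCs, and 14.5, 5.39 and 13.5 FPKM in treated iCDCs. Every treated library was above every untreated one, and the iCDC libraries lay just above the primary ones. The log2 fold change of 0.35 between iCDCs and primary CDCs did not pass the test (SE 0.144, adjusted p = 0.132), but did without iCDC replicate 1 (log2 fold change 0.48, adjusted p = 0.0449). C4b rose in treated iCDCs by a log2 fold change of 2.99 against iCDCs (SE 0.364, adjusted p = 0.00159) and of 3.36 against primary CDCs (SE 0.378, adjusted p = 0.0013).

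Near-identical copies make part of these levels uncertain, since reads of a copy may be counted for either gene. Of the 100-base windows of its transcripts, C1ra shares 34.5% with C1rb, C4b shares 15.2% with C4a, C1s1 shares 6.87% with C1s2 and Cd55 shares 4.19% with Cd55b. The counts of C4a were 4 to 15 and those of C1s2 were 1 to 8 in any library, and Cd55b had at most 3. C1rb had 104 counts in treated replicate 1 but 4 and 8 in the other treated libraries, and at most 5 in the untreated ones. An antisense gene, Gm16567, covers 11400 bases of C1s1 on the opposite strand and was listed at 0 in every library. Whether the counting used strand is not given in the sources used here, so reads of either strand cannot be told apart.

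The alternative pathway was close to undetected at the level of its own protease genes. Cfd (chr10:79890853-79892655, plus strand), which encodes factor D, had 1 count in iCDC replicate 1 and 0 counts in the other 8 libraries. Cfb (chr17:34856374-34862518, minus strand), which encodes factor B, had 0, 2 and 1 counts in primary CDCs, 0 counts in each iCDC library, and 1, 0 and 0 counts in treated iCDCs. No library rose above the 3 counts taken as the floor, which correspond to 0.125 to 0.181 CPM depending on the library and cover counting error only. A protein-coding gene on the same strand, Gm20547, covers 6107 bases of Cfb and was listed at 0 in every library, so reads that fit both genes may not have been counted and the low level of Cfb is uncertain. The same gene overlaps C2, which had 2 to 11 counts.

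Serping1 (chr2:84765387-84775444, minus strand), the gene of the inhibitor of C1r and C1s, moved in the same direction as the protease genes in all 3 comparisons. Its level was 2.44, 2.48 and 2.65 FPKM in primary CDCs, 1.17, 1.20 and 0.756 FPKM in iCDCs, and 5.44, 2.66 and 5.86 FPKM in treated iCDCs. The groups did not overlap, but treated replicate 2 was barely above the highest primary library. Serping1 fell in iCDCs relative to primary CDCs by 1.27 on the log2 scale (SE 0.184, adjusted p = 0.00216). In treated iCDCs it rose with a log2 fold change of 2.16 against iCDCs (SE 0.341, adjusted p = 0.00395) and of 0.89 against primary CDCs (SE 0.287, adjusted p = 0.0495). The latter call was lost without any one of the primary libraries, treated replicate 1 or treated replicate 3 (adjusted p from 0.124 to 0.147).

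Cd55 (chr1:130439027-130462744, minus strand), the gene of the decay-accelerating protein of the cell surface, had the highest mean level of the 9 genes in primary CDCs and iCDCs. It stood at 11.9, 13.1 and 13.2 FPKM in primary CDCs, 8.84, 8.57 and 4.48 FPKM in iCDCs, and 13.3, 7.33 and 13.9 FPKM in treated iCDCs. The iCDC libraries lay below the primary ones, with replicate 3 far below the others, whereas the treated libraries overlapped with iCDCs through replicate 2. Cd55 fell in iCDCs relative to primary CDCs by 0.81 on the log2 scale (SE 0.208, adjusted p = 0.0292), but the call was lost without any one of the primary libraries (adjusted p from 0.0826 to 0.109). Neither comparison of the treated libraries passed, with a log2 fold change of 0.67 against iCDCs (SE 0.308, adjusted p = 0.133) and of -0.13 against primary CDCs (SE 0.228, adjusted p = 0.677). Against iCDCs the log2 fold change was 0.90 without treated replicate 2 (adjusted p = 0.0106), 0.40 without iCDC replicate 3 (adjusted p = 0.303) and 0.66 with no filter on low counts (adjusted p = 0.00743), so the call depended on the libraries and on the filter. Against primary CDCs it was 0.11 without treated replicate 2 and did not pass (adjusted p = 0.101).

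C3ar1 (chr6:122847138-122856161, minus strand), the gene of the C3a receptor, was the only one of the 7 tested genes to fall in treated iCDCs. Its level was low throughout, at 0.852, 0.735 and 0.676 FPKM in primary CDCs, 1.15, 1.27 and 0.862 FPKM in iCDCs, and 0.172, 0.486 and 0.180 FPKM in treated iCDCs. Each treated library was below each untreated one, and treated replicate 2 was again the closest to them. C3ar1 fell in treated iCDCs by 1.93 on the log2 scale relative to iCDCs (SE 0.405, adjusted p = 0.011) and by 1.40 relative to primary CDCs (SE 0.390, adjusted p = 0.0303). Without treated replicate 2 the log2 fold changes were -2.62 and -2.08. The second of these calls was lost without any one of the primary libraries, treated replicate 1 or treated replicate 3 (adjusted p from 0.0795 to 0.105). Between iCDCs and primary CDCs the log2 fold change was 0.53 (SE 0.186, adjusted p = 0.0875), which passed without iCDC replicate 3 (log2 fold change 0.67, adjusted p = 0.00695).

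**Figure D2:**
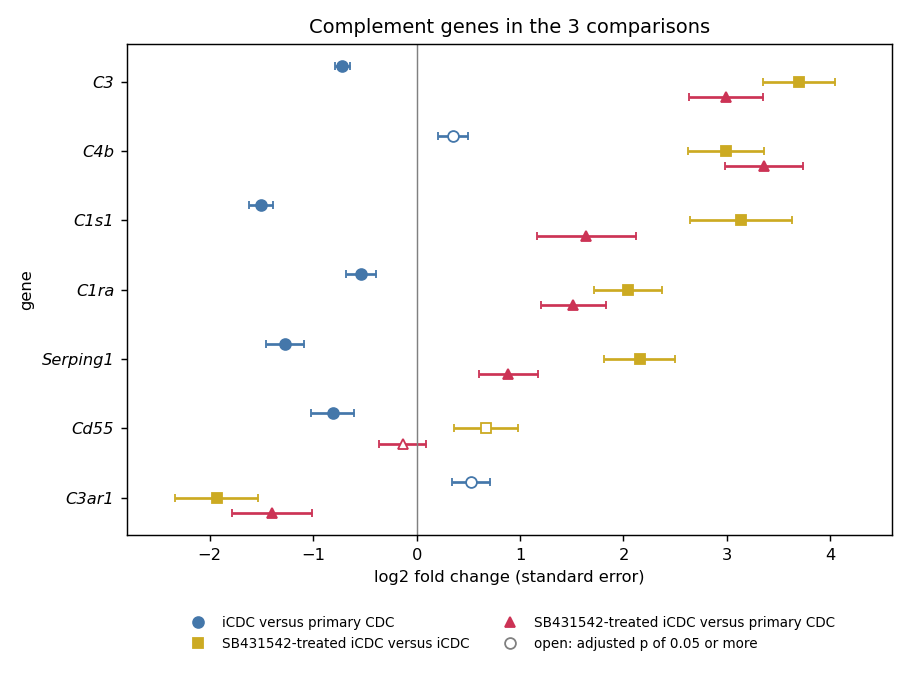
Log2 fold change of the 7 tested complement genes in the 3 comparisons of groups, with its standard error, where filled points passed an adjusted p of 0.05 and open points did not. In treated iCDCs against iCDCs, 5 genes lie above 2 on the log2 scale, Cd55 at 0.67 did not pass and C3ar1 lies at -1.93.

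Each treated library differed from the iCDC mean in the same direction as the other treated libraries in each of the 7 genes. Treated replicate 2 had the smallest difference from the iCDC mean of the 3 treated libraries in 7 of 7 complement genes, and the same held in 7 of 7 TGF-β target genes. It also held for 4 of 5 genes from the wider complement list below, the exception being Masp1. The share of all genes was not computed for either pattern, and treated replicate 2 stood apart across all the genes compared between libraries. A further fit, chosen after seeing the data, left out iCDC replicate 3 and treated replicate 2 and so had a library fewer in each group. There the number of the 7 genes that rose was 6 and the number that fell was 1, the addition being Cd55 (log2 fold change 0.66, adjusted p = 4.1e-09). In that fit 32.6% of the 13867 genes tested rose and 31.9% fell, more than with all libraries.

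**Figure D3:**
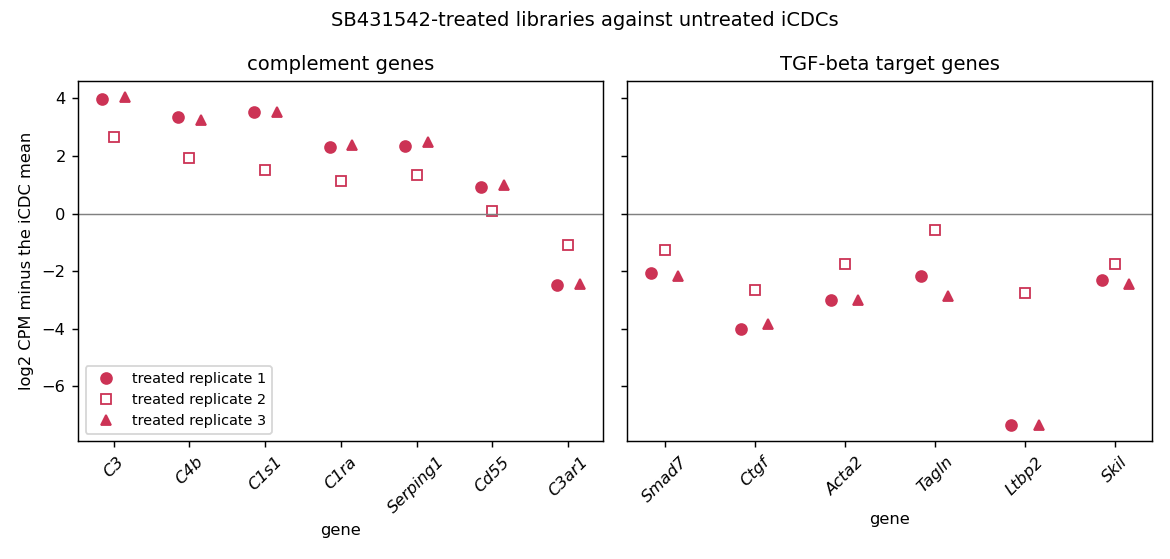
Difference in log2 CPM between each treated library and the mean of the 3 iCDC libraries, for the 7 tested complement genes and 6 of the TGF-β target genes. Open squares mark treated replicate 2, which lies nearest to the line at 0 for each of the 13 genes.

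Markers of other cells were read beside these changes. The macrophage genes Adgre1, Fcgr1, C1qa, C1qb and C1qc had 0 counts in every library and Ptprc had at most 4. The whole macrophage list of 10 genes had 6 or 7 members at or under 3 counts in each group, and its summed level was 28.5 to 33.0 CPM in primary CDCs, 20.6 to 36.7 CPM in iCDCs and 25.7 to 39.8 CPM in treated iCDCs, mainly from Csf1r (260 to 679 counts per library). Lyz2, a lysozyme gene of myeloid cells, had 14 to 16 counts in primary CDCs, 57 to 77 in iCDCs and 25 to 45 in treated iCDCs, and so rose between primary CDCs and iCDCs (log2 fold change 2.55, adjusted p = 9.39e-05) and fell from iCDCs to treated iCDCs by 0.95 (adjusted p = 0.0284), opposite to C3 in both. Against primary CDCs, Lyz2 rose in treated iCDCs with a log2 fold change of 1.61 (adjusted p = 0.00569), while Cd68 fell by 0.86 (adjusted p = 0.022). Hepatocyte markers Alb, Apoa1 and Ttr had at most 1 count. The summed level of 6 epicardial and mesothelial markers was 97.1 to 101 CPM in primary CDCs, 84.4 to 121 CPM in iCDCs and 122 to 219 CPM in treated iCDCs, so it was higher in each treated library. Most of this sum is Tbx18, whose log2 fold change of 0.65 in treated iCDCs against iCDCs did not pass (adjusted p = 0.0626). Tbx18 rose in treated iCDCs against primary CDCs (log2 fold change 0.84, adjusted p = 0.0228). Against iCDCs, Upk3b (log2 fold change 3.45, adjusted p = 0.000912) and Tcf21 (1.47, adjusted p = 0.00565) rose. Wt1 rose too, from 0 to 2 counts in iCDCs to 14 to 43 in treated iCDCs (adjusted p = 0.00615). Upk3b, with 4 to 9 counts in iCDCs, and Wt1 passed the filter on counts in this comparison only through their treated libraries. Upk1b had 8, 68 and 7 counts in the treated libraries and 5 to 19 in iCDCs, and was not tested between them. It fell in iCDCs relative to primary CDCs (log2 fold change -1.27, adjusted p = 0.0413) and did not pass in treated iCDCs against primary CDCs (-0.10, adjusted p = 0.925). Upk1b entered both comparisons through its primary libraries, with 26 to 44 counts. Msln, with 0 to 18 counts in any library, was not tested in any comparison. The part of these marker changes in the complement results was not tested.

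As a description over all 9 libraries, the genes whose log2 CPM followed that of C3 most closely among 11378 genes were Ralgds (Pearson's r = 0.999), Mtss1 (r = 0.998), Cebpd (r = 0.997), Fgf23 (r = 0.997) and Ebf4 (r = 0.996). Over the same libraries r with C3 was 0.967 for C1ra, 0.958 for C4b, 0.922 for C1s1, 0.874 for Serping1, 0.427 for Cd55 and -0.974 for C3ar1. The 9 points fall into groups, so these values mostly describe the difference between treated and untreated libraries.

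The rest of the pathway was read from a list of 46 other complement genes, of which 23 had at most 3 counts in every library. Among those near 0 were all of C1q, the terminal components Hc (C5), C6, C7, C8a, C8b and C9, the lectins Mbl1, Mbl2, Fcnb and Colec10, and the receptors C5ar1, C5ar2, Itgam and Itgax. A protein-coding gene on the same strand, Gm49368, covers 55809 bases of Itgam. Reads that fit both genes may not have been counted, so the low level of Itgam is uncertain. Between iCDCs and primary CDCs, 6 of 11 tested genes fell and 0 rose, where 9.21% of all genes tested fell and 7.21% rose. Between treated iCDCs and iCDCs, 5 of 11 rose and 1 fell, against 16.0% and 14.0% of all genes. Of 12 tested between treated iCDCs and primary CDCs, 4 rose and 2 fell, against 17.9% and 17.0%, so the share that fell was near that of all genes. Csmd1, counted among the rising genes of both treated comparisons, passed the filter on counts only through its treated libraries. Cd59a, counted among the falling genes of both comparisons with primary CDCs, passed it only through its primary libraries. The median log2 fold changes of the tested genes were -0.37, 0.71 and 0.46.

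Among soluble regulators, Clu, which encodes clusterin, a chaperone that also binds the terminal complex, had the highest level. Its mean was 13.6 ± 0.877 FPKM in primary CDCs and 4.80 ± 0.801 FPKM in iCDCs (SD, n = 3), and the treated libraries stood at 263, 32.4 and 271 FPKM. All treated libraries were above all untreated ones, with replicate 2 far below the others. Clu fell in iCDCs relative to primary CDCs by 1.51 on the log2 scale, and rose in treated iCDCs with a log2 fold change of 5.31 against iCDCs (SE 0.749, adjusted p = 0.00263) and 3.81 against primary CDCs.

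Itgb2, the β chain of the leukocyte complement receptors, had 51 to 56 counts in primary CDCs, 11 to 17 in iCDCs and 102, 51 and 105 in treated iCDCs. Its usual partners Itgam and Itgax were at or under 3 counts, though the low level of Itgam is uncertain because Gm49368 overlaps it. The log2 fold change of Itgb2 was -1.62 in iCDCs against primary CDCs and 2.61 in treated iCDCs against iCDCs, both past the test, and 0.99 in treated iCDCs against primary CDCs, which did not pass but did without treated replicate 2 (log2 fold change 1.31, adjusted p = 1.72e-06). Colec12, a scavenger receptor of the collectin family, fell by 0.26 in iCDCs relative to primary CDCs and rose in treated iCDCs by 0.94 against iCDCs and 0.69 against primary CDCs. Its calls rested on single libraries, being lost without any one primary library in both comparisons with primary CDCs (adjusted p from 0.0768 to 0.132), without iCDC replicate 1 or 2 against iCDCs (0.0657 and 0.0584), and without treated replicate 1 or 3 in both treated comparisons (0.0514 to 0.135). Masp1, a protease of the lectin pathway, went the other way from C1ra and C1s1 under treatment, with group means of 2.58 ± 0.0687, 1.44 ± 0.479 and 0.675 ± 0.0354 FPKM. It fell in all 3 comparisons, by 0.86 in iCDCs against primary CDCs, by 1.08 in treated iCDCs against iCDCs and by 1.92 in treated iCDCs against primary CDCs, the first of which was lost without any one primary library or iCDC replicate 2 (adjusted p from 0.0565 to 0.0689).

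Cd59a, a membrane protein that blocks the terminal complex, had 59, 43 and 59 counts in primary CDCs, 0, 1 and 0 in iCDCs and 0 in each treated library. Taking 3 counts per library as the floor, it was at least 14.2-fold lower in iCDCs and at least 14.7-fold lower in treated iCDCs. Cfp, the gene of properdin, which stabilizes the alternative pathway enzyme, rose only between treated iCDCs and primary CDCs among the 3 comparisons (log2 fold change 0.89, adjusted p = 0.0264), and whether that differed from its 0.71 against iCDCs was not tested. The call was lost without any one primary library or treated replicate 1 (adjusted p from 0.0649 to 0.103). Csmd1, a membrane regulator, is named after its values were seen because it is among the genes that rose against both untreated groups, with 16, 24 and 35 counts in treated iCDCs and 0 to 3 in the others. Its treated mean was 0.0699 FPKM, under the level of 1 FPKM that the naming rule asks.

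**Figure D4:**
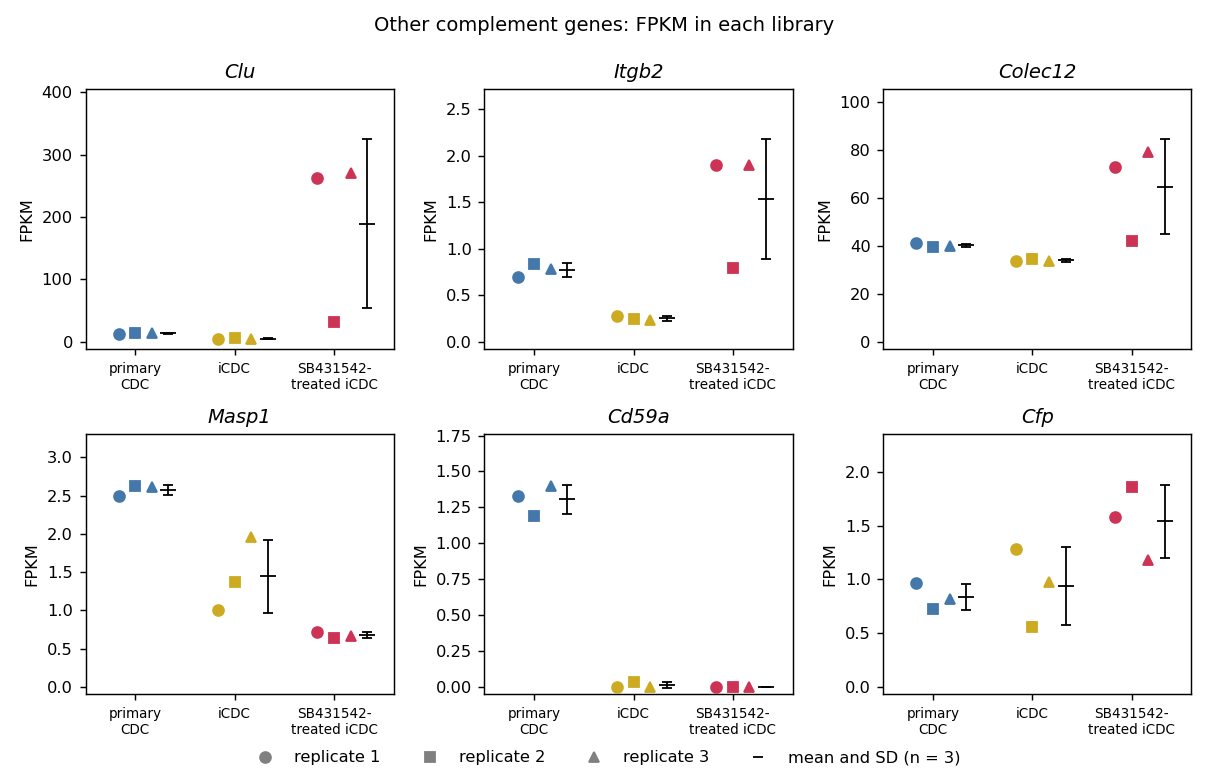
FPKM of 6 further complement genes in each library, with the mean and SD of each group (n = 3). Clu is highest in treated replicates 1 and 3 at 263 and 271 FPKM, Masp1 is lowest in the treated group, and Cd59a is at or near 0 in both iCDC groups.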

How the data were processed

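There were 9 RNA sequencing libraries, 3 each of primary CDCs, iCDCs and SB431542-treated iCDCs, grouped by the labels. The authors deposited, for each gene and library, an unnormalized read count. Beside it they deposited FPKM, which is that count over the gene's length and a library constant (1 of 179215 values above 0 was over 0.1% away). Per the submitters' processing notes, Bowtie2 2.0.6, TopHat2 2.0.9 and mm9 were used, but 53499 of 54532 genes have the start and end of GENCODE M21 on GRCm38, so coordinates are those of GRCm38. The counting program and its strand setting are not given in the sources used here, and the labels and the study's methods name different library kits and instruments. The authors' own fold changes and p-values in the table were not used.

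The quasi-likelihood test of edgeR 4.0.16 (R 4.3.3) was run on the counts after filterByExpr, which asked for a count of 10 and a total of 15, with TMM scaling, 2 groups at a time, with Benjamini-Hochberg adjustment over all genes tested and a threshold of 0.05. Positive log2 fold changes are higher in the group named first. Scripts were tested on simulated data. Libraries were compared by a chi-square statistic over genes with at least 20 counts summed over the pair. No libraries agreed within sampling noise. The common biological coefficient of variation was 0.0919 for iCDCs and primary CDCs, 0.171 for treated iCDCs and iCDCs, and 0.144 for treated iCDCs and primary CDCs. Total counts of 16568306 to 23951392 per library put 3 counts, the floor, at 0.125 to 0.181 CPM, and floors cover counting error only. Likeness to C3 was taken over genes with a mean of at least 1 FPKM. Alternatives were DESeq2 1.42.0, its size factors in edgeR, no filter, all 9 libraries in 1 fit, the replicate number as a block, a threshold of 1 on the size of the log2 fold change, limma 3.58.1 on log2(FPKM + 1), and leaving out each library.

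The 9 genes and all lists were chosen with earlier results of these data known. All 9 are named whatever they show. Of the wider list, genes are named that passed with a mean of at least 1 FPKM in the higher group, with near-identical copies and genes at or under 3 counts. Csmd1 was below that level and was added after its values were seen. A few genes of the lists are counted in the totals but not reported here. Python 3.11.15, pandas 2.3.3, numpy 2.4.6 and matplotlib 3.10.9 were used for tables and figures, and sequences are from RefSeq.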

Additional observations from a re-analysis of the deposited data

How the results depend on the processing

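Of 259 recomputed fold changes of single complement genes, 220 stayed in direction and on their side of the threshold, 33 lost the call, 5 gained it and 1 changed sign, namely Cd55 between treated iCDCs and primary CDCs without treated replicate 2 (log2 fold change 0.11, the highest when a library was left out, the lowest being -0.29). The rise of C3, C4b, C1s1, C1ra and Serping1 and the fall of C3ar1 from iCDCs to treated iCDCs were called under every alternative run. Of 456 such values of 13 other named genes, 414 stayed, 36 lost the call, 5 gained it and 1 changed sign, Cfp between iCDCs and primary CDCs without iCDC replicate 1 (log2 fold change -0.15, the highest when a library was left out being 0.43). The number of the 7 genes passing between iCDCs and primary CDCs, 5, was 1 with all 9 libraries in the fit, 3 with limma on log2(FPKM + 1), 2 at a log2 fold change of at least 1, and 3 to 6 when a library was left out. C3 and C1s1 lost that call with all 9 libraries (adjusted p = 0.202 and 0.0876). Between treated iCDCs and primary CDCs the number was 2 to 6 when a library was left out. In the wider list the number passing between iCDCs and primary CDCs was 3 with all 9 libraries and 3 at a log2 fold change of at least 1, and between treated iCDCs and primary CDCs it was 4 to 11 when a library was left out. Over all genes, 671 passed between iCDCs and primary CDCs with all 9 libraries, 512 at a log2 fold change of at least 1 and 1036 to 4467 when a library was left out, the highest without iCDC replicate 3. Between treated iCDCs and iCDCs, 1434 passed at a log2 fold change of at least 1, 1707 to 7001 when a library was left out, the highest without treated replicate 2, and 8951 without iCDC replicate 3 and treated replicate 2, an alternative chosen after seeing the data. Between treated iCDCs and primary CDCs these were 1330 and 2453 to 9188, the highest again without treated replicate 2. With the replicate number as a block, 4, 6 and 5 of the 7 genes passed in the 3 comparisons, and 1791, 3038 and 3886 of all genes. Deviations of the same replicate number correlated at -0.207 to 0.0329 over 9 pairs of libraries, against -0.100 to 0.190 over 18 pairs of different number. These values do not settle whether the numbers pair the samples. Deviations from a group mean depend on each other, and the lowest and highest values both involve iCDC replicate 3, which stood apart.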

Other observations

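A list of 12 transcription factors and feedback genes of inflammatory signalling was read beside the complement genes. In treated iCDCs against iCDCs, 8 of 12 rose and 1 fell, where 16.0% and 14.0% of all genes tested did, and the median log2 fold change was 0.62. Those that rose included Cebpd, a C/EBP factor of the acute phase response (log2 fold change 1.35, adjusted p = 0.00117), Socs3, a feedback inhibitor of cytokine signalling (1.08, adjusted p = 0.00311), Irf1, an interferon-responsive factor (1.05, adjusted p = 0.00199), and Nfkbia, the inhibitor of NF-kappaB (0.90, adjusted p = 0.0085). Tnfaip3, another NF-kappaB feedback gene, fell (log2 fold change -1.003, adjusted p = 0.00473). In iCDCs against primary CDCs, 4 of the 12 fell, among them Irf1, Cebpd and Socs3, and Tnfaip3 rose with a log2 fold change of 0.78, where 9.21% of all genes tested fell and 7.21% rose. Without primary CDC replicate 3 the adjusted p of these 3 genes was 0.0553 to 0.0704. In treated iCDCs against primary CDCs, 10 of the 12 rose and 0 fell, against 17.9% and 17.0% of all genes, with a median log2 fold change of 0.56, but Irf1 lost the call without primary CDC replicate 1 or 2 (adjusted p = 0.0538 and 0.0531) and Socs3 without replicate 1 (adjusted p = 0.0505). The comparisons share libraries, and no relation between these genes and the complement genes was tested.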
